A study of Homo sapiens with 1 sample.

Results

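The replication licensing factors were taken as 10 genes, found by symbol in the deposited gene list: MCM2, MCM3, MCM4, MCM5, MCM6, MCM7, MCM10, CDC6, CDT1 and GMNN. They are 10 of the 33538 genes listed, and each was detected. They were measured by droplet single-cell RNA sequencing in 1 library of H9, an established human embryonic stem cell line. The cells had the WT genotype, with the human form of HAR123 (hHAR123), an enhancer in the SMG6 gene that evolved rapidly in humans, and were made into neural progenitor cells (NPCs) with Rock inhibitor, Dorsomorphin and SB431542. Per the study's methods, independent clones of the genotype were used and cells were collected before rosettes were selected, so other cell types had not been removed. Lines with other forms of HAR123 were not analysed here.

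Licensing is the step that makes a stretch of DNA ready to be copied once per cell cycle. In late mitosis and G1, the origin recognition complex with CDC6 and CDT1 loads the ring of MCM2 to MCM7, which later becomes the core of the replicative helicase. GMNN encodes geminin, which binds CDT1 and blocks further loading once S phase has begun, and MCM10 helps the loaded helicase to start. Neural progenitors divide quickly and their daughters leave the cycle as they become neurons, so these genes are widely used as marks of proliferation in this tissue.

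Of 14726 barcodes, 13925 had 2000 to 10000 detected genes and a mitochondrial share below 0.1 and were kept. Kept cells held a median of 17900 unique molecular identifiers (UMIs, each marking 1 captured RNA molecule), from 3167 to 118188. Cells were clustered without the 10 genes and the clusters were named from marker genes. A group of 11820 forebrain NPC-like cells (84.9%) had SIX3 and SOX2, a group of 1903 contractile NPC-like cells (13.7%) had high TAGLN and TPM1, and 202 differentiating-progenitor-like cells (1.45%) had STMN2, DCX and ELAVL4. Median depths in these 3 classes were 16854, 45290 and 13109 UMIs per cell. The last part of the name of the contractile class is that of the culture, since most neural progenitor markers were low in it. SOX2 had 133 CPM (counts per 1000000 UMIs) there and 424 CPM in forebrain NPC-like cells, HES5 10.9 and 192, SOX1 9.72 and 61.9, and PAX6 22.1 and 55.9. Of the 8 such markers, NES (635 and 229 CPM) and VIM (4008 and 849 CPM) were higher in it. Epithelial markers went both ways. KRT8 (270 and 70.6 CPM), KRT18 (382 and 71.7 CPM) and CLDN6 (135 and 13.1 CPM) were higher in it, KRT19 (15.1 and 30.2 CPM) and EPCAM (3.90 and 4.75 CPM) were lower, and CDH1, CLDN7 and ESRP1 were below 1 CPM in both classes. Of the 8 markers listed for differentiating progenitors, GAP43 was lower in differentiating-progenitor-like cells (87.8 CPM) than in contractile cells (136 CPM). The others were highest in differentiating-progenitor-like cells, with TUBB3 at only 22.2 CPM. With 1 library there were no replicates and no test was possible. All intervals are 95% intervals and all SEs are counting errors, and neither holds the spread between cultures.

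The starts of these genes are shown first because all 10 genes changed in level over the cell cycle. E2F factors, which switch on genes at the G1 to S transition, bind sites with words such as TTCCCGC. The related words searched with it were TTCGCGC, then TTGGCGC with a doubled G, and lastly TTGCCGC with a doubled C. Windows of 300 bases, from 250 before to 50 after each RefSeq start (GRCh38.p14), were searched for these words on both strands, and overlapping matches were each counted. The table held 11 windows for 8 of the 10 genes, all but MCM4 and MCM5. At least 1 window had a match for 7 of those 8 genes (MCM2, MCM3, MCM6, MCM7, CDC6, CDT1 and GMNN), and 8 of the 11 windows did, beside 12.97% of all 35116 windows and 15.3% of all 27305 genes. MCM10 had no match. A second word, the cell cycle homology region (TTTGAA or TTCGAA), was in 1 of the 11 windows, that of MCM6, and in 16.4% of all windows. Below, capitals mark the E2F-type words in the MCM6, CDC6, CDT1 and GMNN windows, chosen to show an early hexamer subunit, both loaders and the inhibitor. The MCM10 window is given as that of the only gene of the 8 without a match.
MCM6 (chr2:135876394-135876693, minus strand): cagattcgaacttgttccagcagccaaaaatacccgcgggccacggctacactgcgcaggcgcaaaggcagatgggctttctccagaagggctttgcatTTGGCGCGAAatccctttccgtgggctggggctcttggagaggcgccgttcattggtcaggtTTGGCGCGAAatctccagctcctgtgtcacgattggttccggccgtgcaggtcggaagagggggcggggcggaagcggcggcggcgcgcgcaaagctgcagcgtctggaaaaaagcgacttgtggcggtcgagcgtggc
CDC6 (chr17:40287629-40287928, plus strand): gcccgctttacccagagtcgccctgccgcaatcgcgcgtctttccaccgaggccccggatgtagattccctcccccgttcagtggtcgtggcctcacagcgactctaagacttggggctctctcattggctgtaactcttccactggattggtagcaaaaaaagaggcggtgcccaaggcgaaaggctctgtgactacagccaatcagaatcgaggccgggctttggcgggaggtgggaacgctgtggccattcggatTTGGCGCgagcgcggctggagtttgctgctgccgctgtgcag
CDT1 (chr16:88803539-88803838, plus strand): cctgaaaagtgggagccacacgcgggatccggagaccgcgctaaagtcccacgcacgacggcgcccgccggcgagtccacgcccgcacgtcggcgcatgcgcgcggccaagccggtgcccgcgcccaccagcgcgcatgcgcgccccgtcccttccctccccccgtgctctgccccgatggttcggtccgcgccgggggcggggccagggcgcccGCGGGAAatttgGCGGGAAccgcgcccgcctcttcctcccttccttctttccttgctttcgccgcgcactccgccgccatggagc
GMNN (chr6:24775163-24775462, plus strand): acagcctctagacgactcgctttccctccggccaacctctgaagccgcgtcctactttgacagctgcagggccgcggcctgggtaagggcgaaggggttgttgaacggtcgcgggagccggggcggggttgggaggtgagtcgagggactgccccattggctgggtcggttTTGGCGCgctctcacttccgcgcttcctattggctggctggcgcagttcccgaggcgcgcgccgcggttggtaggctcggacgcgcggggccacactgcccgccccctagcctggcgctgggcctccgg
MCM10 (chr10:13161308-13161607, plus strand): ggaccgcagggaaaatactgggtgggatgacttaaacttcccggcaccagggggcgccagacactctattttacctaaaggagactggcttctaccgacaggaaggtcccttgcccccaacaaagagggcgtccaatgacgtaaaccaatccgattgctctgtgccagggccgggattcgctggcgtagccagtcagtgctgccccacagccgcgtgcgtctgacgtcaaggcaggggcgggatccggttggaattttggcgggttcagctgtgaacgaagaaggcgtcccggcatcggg
In the MCM6 window, pairs of overlapping words began 151 and 89 bases before the start. In CDT1 the words began 35 and 23 bases before the start, in GMNN 79 bases before it, and in CDC6 the word began at base 9 of the transcript. GMNN had a second window (chr6:24774687-24774986), with no match, and it is this one that holds the gene start of the annotation given below. The printed GMNN window, at another RefSeq start, lies inside the annotated gene. A match is a run of letters and does not show that a factor was bound.

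In the GENCODE 44 annotation of GRCh38, the hexamer and other genes lie as follows. MCM2 is at chr3:127598410-127622436, MCM3 at chr6:52264014-52284881, MCM4 at chr8:47960185-47978160 and MCM5 at chr22:35400134-35425431. MCM6 is at chr2:135839626-135876443, MCM7 at chr7:100092233-100101940 and MCM10 at chr10:13161558-13211110. CDC6 is at chr17:40287879-40304657, CDT1 at chr16:88803789-88809258 and GMNN at chr6:24774931-24786099. MCM7 overlaps AP4M1 on the opposite strand, which had 4326 UMIs, and the other 9 genes overlap no listed gene. The strand used in counting is not given in the sources used here.

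Hexamer subunits were unequal at the RNA level. The level of a gene is its share of all UMIs, given in CPM, and since the assay tags the 3′ end of each molecule the counts were not divided by gene length. Over all kept cells, MCM3 stood at 129 CPM (interval 128 to 130) and MCM7 at 128 CPM (126 to 129), and these intervals overlapped. MCM4 followed at 91.7 CPM (90.6 to 92.8) and MCM6 at 61.3 CPM (60.5 to 62.2). MCM2, at 40.8 CPM (40.1 to 41.5), and MCM5, at 39.6 CPM (38.9 to 40.3), were lowest and their intervals overlapped. The 6 subunits sum to 490 CPM. The protein ring holds 1 copy of each subunit, whereas these RNA levels were unequal, and differences in capture between genes were not tested.

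Among the other genes, the inhibitor GMNN was highest at 110 CPM (109 to 111). MCM10 had 48.2 CPM (47.4 to 49.0) and CDC6 had 38.6 CPM (37.9 to 39.3). CDT1 was the lowest of all 10 at 19.2 CPM (18.7 to 19.7), with 6041 UMIs against 34574 for GMNN. The loaders were thus the less abundant RNAs, and the CDC6 interval overlapped that of MCM5.

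To place the genes in the cell cycle, forebrain NPC-like cells were ordered by 2 scores, 1 from 37 S phase genes and 1 from 54 G2/M genes, after every cell was thinned to 5000 UMIs. The standard S list holds 6 of the licensing genes, which were removed from it first. The order started where both scores were low, ran through high S and then high G2/M, and was split into 20 bins of 590 or 591 cells (11802 in all). Its direction was taken from known biology. The remaining S genes include G1/S targets, so a high near the peak of the S score partly follows from how the axis was built. Histone genes and 16 G2/M genes, such as CCNB1, were not used in the order and served as landmarks. The G2/M landmark genes rise with the genes of the G2/M score, so their late place was largely fixed by the order. Median depth moved with the order, from 13406 UMIs per cell in bin 18 to 22799 in bin 11.

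All 10 genes changed at least 2-fold between their highest and lowest bin, and 17.0% of the 10337 genes with at least 2000 UMIs did. With histone genes as the S axis, 8 of 10 did, and no share of all genes was available for that order. In the main order, the count at 1.5-fold and at 3-fold was also 10 of 10, against 51.4% and 5.86% of genes. There 4-fold was reached by 8 of 10, against 3.76%. The median fold was 6.27 for the 10 genes and 1.51 for all genes tested. The genes were thus among the more strongly cycling RNAs of these cells, with the S score itself partly fixing their timing.

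**Figure D1:**
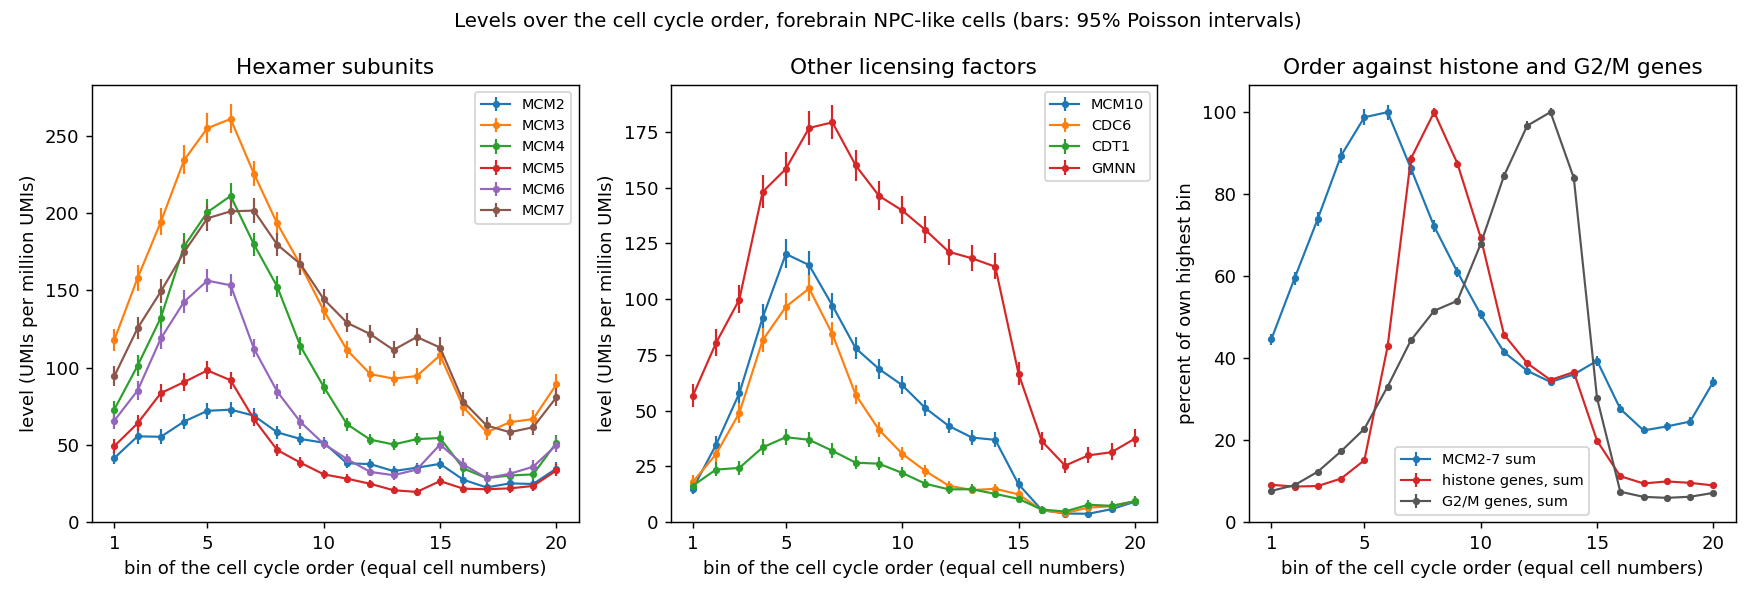
Level of each gene in 20 bins of the cell cycle order in forebrain NPC-like cells, in CPM with 95% Poisson intervals (left and middle), and sums of MCM2 to MCM7, histone genes and G2/M genes as percent of their own highest bin (right). The MCM2 to MCM7 sum is highest in bin 6, the histone sum in bin 8 and the G2/M sum in bin 13.

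Among the hexamer subunits, MCM5 and MCM6 had the earliest highest bin, bin 5, though the intervals of bins 4 to 6 overlapped. MCM5 went from 49.2 CPM in bin 1 to 98.2 in bin 5, its highest, and was down to 46.7 in bin 8 and 19.6 in bin 14, its lowest. MCM6 went from 65.7 CPM in bin 1 to 156 in bin 5 and 84.5 in bin 8, with its low of 28.6 in bin 17. Both were past their high while the histone sum was still climbing.

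MCM3, MCM4 and MCM2 were highest in bin 6. MCM3 rose from 118 CPM in bin 1 to 261 in bin 6 and fell to 58.2 in bin 17, a 4.48-fold range (4.08 to 4.93). MCM4 rose from 72.9 to 211 CPM and fell to 28.6 CPM over the same bins, a 7.38-fold range (6.48 to 8.44). MCM2 had a flatter profile, from 72.8 CPM in bin 6 to 22.5 CPM in bin 17, a 3.24-fold range (2.77 to 3.80).

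MCM7 stayed high longest among the subunits. It stood at 201 CPM in bin 6, 202 CPM in bin 7 and 180 CPM in bin 8, was still at 111 CPM in bin 13, and had its low of 58.2 CPM in bin 18, a 3.46-fold range (3.15 to 3.82). The share of MCM7 in all MCM2 to MCM7 UMIs therefore grew from 19.7% in bin 4 to 33.6% in bin 14. Over the order the share of MCM5 went between 11.4% and 5.49% and that of MCM6 between 16.2% and 8.90%, while MCM3 kept between 26.0% and 27.9%.

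Both loaders were highest early and had different ranges. CDC6 climbed from 18.1 CPM in bin 1 to 105 CPM in bin 6 and fell to 4.13 CPM in bin 17, a 25.4-fold range (18.2 to 36.4). CDT1 climbed from 16.4 CPM to 38.1 CPM in bin 5 and fell to 4.82 CPM in bin 17, a 7.91-fold range (5.75 to 11.1). Both had their low in the same bin, after the G2/M bins.

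MCM10 had a wide range, like CDC6. It went from 15.02 CPM in bin 1 to 120 CPM in bin 5 and to 3.80 CPM in bin 18, a 31.6-fold range (22.4 to 46.1) whose interval overlapped that of CDC6. It fell more slowly than CDC6, to 38.0 CPM in bin 13, where CDC6 was at 14.4 CPM.

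GMNN was the latest. It rose from 56.6 CPM in bin 1 to 179 CPM in bin 7, was still at 118 CPM in bin 13, where G2/M genes were highest, and dropped to 36.4 CPM in bin 16. Its low was 25.4 CPM in bin 17, a 7.07-fold range (6.15 to 8.15). GMNN thus stayed high through the bins of high G2/M score and was low after them.

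A single position was computed for each gene from the whole profile, as the phase of its first harmonic, in percent of the order. The positions were 21.1 for MCM5, 22.6 for MCM6, 27.1 for both MCM3 and MCM4, 27.5 for CDC6, 28.0 for MCM2 and 28.7 for CDT1. MCM10 followed at 32.1, MCM7 at 32.8 and GMNN at 37.0, with SEs from 0.173 to 0.468 over the 10. From MCM3 to CDT1, adjacent genes in this order did not differ beyond the 95% limits of counting error, whereas the other 5 neighbouring pairs did.

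Histone genes came after all 10. Their mRNAs are made in S phase, mostly without a poly(A) tail, so this assay captures only part of them. The sum of 71 histone genes had position 43.4, and the 5 with most UMIs lay at 42.1 (HIST1H1E), 42.3 (HIST1H1B), 43.1 (HIST1H1C), 43.6 (HIST1H4C) and 44.7 (HIST2H2AC). The MCM2 to MCM7 sum, at 26.9, was ahead of the histone sum (difference -16.5 percent of the order, SE 0.109), and so was GMNN (difference -6.40, SE 0.223). Counted as UMIs per cell, both leads were smaller, -12.2 (SE 0.0985) for the sum and -3.74 (SE 0.184) for GMNN. Of 19 histone genes with enough UMIs to place, 18 lay behind GMNN, and HIST3H2A, named after its value was seen, lay at 90.1, near the end of the order. A range of at least 2-fold and a position up to 25 percent of the order ahead of the histone sum were shared by 7.52% of genes tested.

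G2/M genes came later again, which the G2/M score and the chosen direction of the order largely fixed. The 15 with enough UMIs had positions from 47.4 to 56.7, with the mitotic cyclin CCNB1 at 56.1 and CCNA2 at 52.6, and all 15 were behind GMNN. The sum of the G2/M genes was at 52.3. G1/S genes not used for the order overlapped the licensing genes, with 16 positions from 23.0 to 37.2, and 4 of them, among them E2F1 at 23.6 and CCNE1 at 25.3, were ahead of the MCM2 to MCM7 sum.

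**Figure D2:**
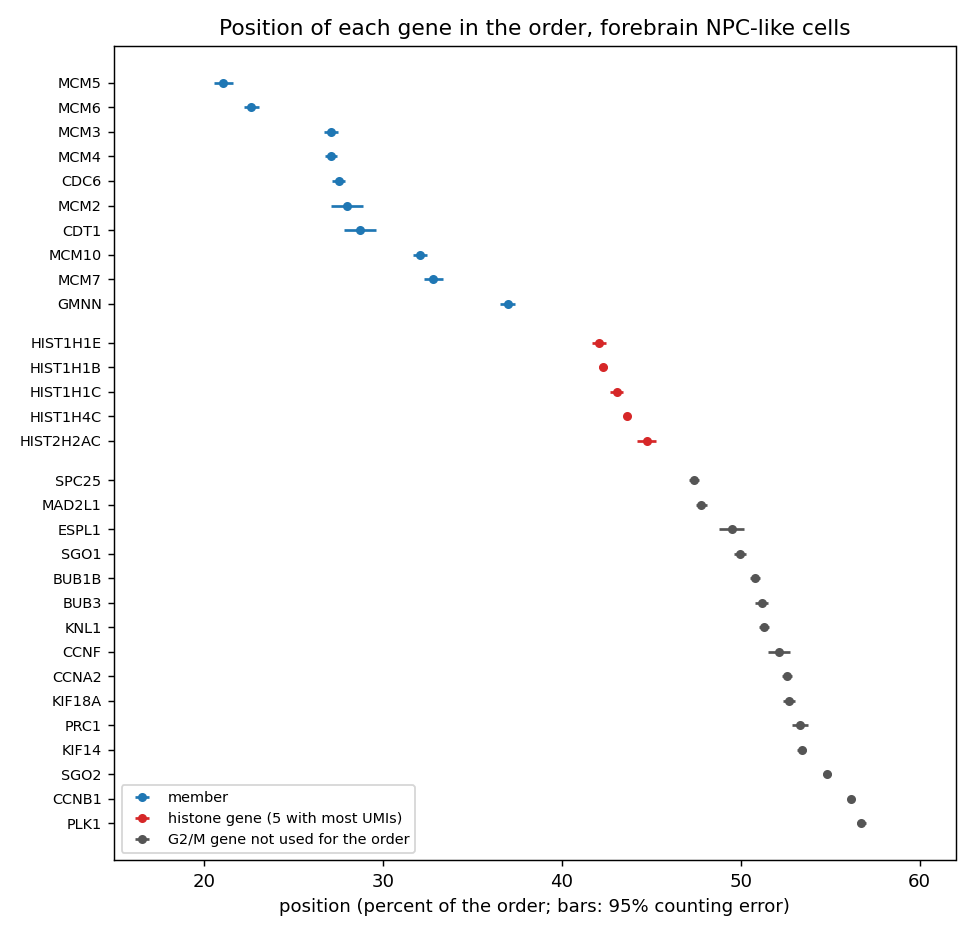
Position of each gene in percent of the order, with bars of 95% counting error, for the 10 licensing genes, the 5 histone genes with most UMIs and 15 G2/M genes in forebrain NPC-like cells. The licensing genes span 21.1 to 37.0, the histone genes 42.1 to 44.7 and the G2/M genes 47.4 to 56.7.

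In forebrain NPC-like cells, CDT1 and its inhibitor moved apart over the cycle. CDT1 was ahead of GMNN (difference -8.25 percent of the order, SE 0.512), a lead that was within counting error when histone genes made up the S score (difference -1.88, SE 2.46). In forebrain NPC-like cells there were 28.9 CDT1 UMIs per 100 GMNN UMIs in bin 1 (23.9 to 34.8) and 29.4 in bin 2 (25.1 to 34.2). The ratio was 20.9 in bin 6 and reached its low of 11.1 in bin 14 (9.39 to 13.01), and it was back at 26.2 in bin 18 (19.7 to 34.3). The intervals of bins 2 and 14 did not overlap. In contractile NPC-like cells the lowest ratio was in bin 2 (9.66, 5.15 to 16.7), from 14 CDT1 UMIs. The highest was in bin 3 (20.4, 15.5 to 26.4), and these 2 intervals overlapped. After bin 3 the ratio came down there too, unevenly, with 20.04 in bin 11 and 12.03 in bin 18 (9.25 to 15.4). The intervals of bins 3 and 18 narrowly did not overlap. These are RNA values, and the CDT1 and geminin proteins, which are both controlled by degradation, were not measured.

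**Figure D3:**
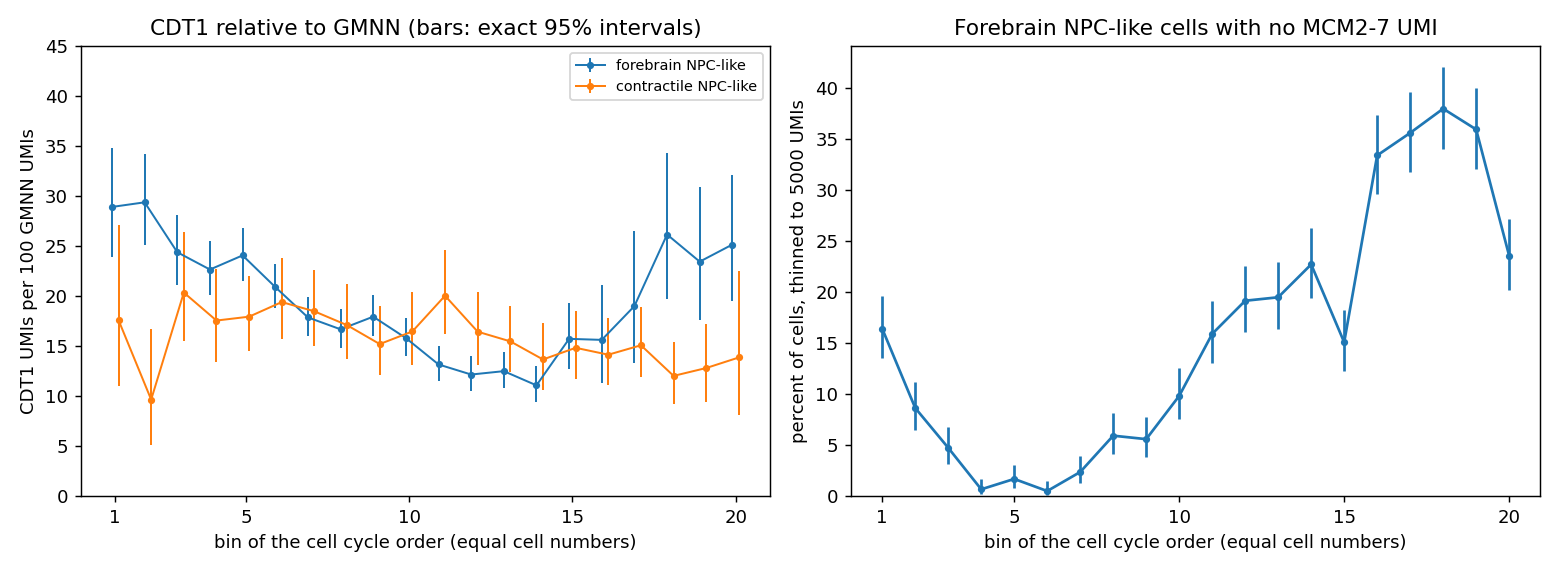
CDT1 UMIs per 100 GMNN UMIs over 20 bins of the order in forebrain and contractile NPC-like cells, with exact 95% intervals (left), and percent of forebrain NPC-like cells with no UMI of MCM2 to MCM7 after thinning to 5000 UMIs, with exact binomial intervals (right). The forebrain ratio falls from 29.4 in bin 2 to 11.1 in bin 14, and the share of cells without a UMI goes from 0.508% in bin 6 to 38.0% in bin 18.

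In single cells at 5000 UMIs, few cells had a UMI of every subunit. All 6 had a UMI in 56 of 13897 cells (0.403%, 0.305 to 0.523), and none did in 17.0% (16.4 to 17.6). At this depth each subunit alone was found in only 17.9% (MCM5) to 44.8% (MCM3) of cells. Whether subunits were found together more or less often than these shares imply was not tested. With all UMIs, the share with all 6 was 20.7%, so the count depended on depth. At the fixed depth none of the 6 was found in 0.508% of forebrain NPC-like cells in bin 6 and in 38.0% in bin 18 (34.0 to 42.0). Without thinning, CDT1 was found in 30.5% of kept cells, GMNN in 73.1% and MCM7 in 82.2%. No class was known beforehand to lack these genes. The class with least of them, the differentiating-progenitor-like cells (median depth 13109 UMIs against 17900 over all), gave shares of 2.48%, 18.8% and 48.0%. RNA free in the droplets was not tested, and its part in these shares is not known.

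Taken as a class, contractile NPC-like cells had lower hexamer levels per UMI. They also differed in the neural progenitor and epithelial markers given above, whose part in the ratios was not tested. The MCM2 to MCM7 sum was 393 CPM there and 533 CPM in forebrain NPC-like cells, a ratio of 0.739 (0.730 to 0.748). Over the forebrain NPC-like clusters the sum ran from 226 to 678 CPM. The larger contractile cluster had 393 CPM and the smaller one 415 CPM, both within that range. MCM2 had a ratio of 0.590 (0.564 to 0.617), MCM6 of 0.591 (0.570 to 0.613), MCM5 of 0.625 (0.598 to 0.654) and MCM3 of 0.687 (0.671 to 0.704). MCM4, at 0.856, and MCM7, at 0.876, were closer to equal. At most 1/1.5 was reached by 3 of the 10 genes, and by 27.0% of the 11205 genes tested, so the share was near the background. The median ratio was 0.841 for the 10 genes and 0.867 for all genes.

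The loader CDC6 went the other way. It had 44.4 CPM in contractile and 36.7 CPM in forebrain NPC-like cells, a ratio of 1.21 (1.16 to 1.26). Thinned to 5000 UMIs per cell, the ratio was 1.41 (1.27 to 1.57). Over the forebrain NPC-like clusters CDC6 ran from 6.35 to 56.8 CPM. The larger contractile cluster had 44.3 CPM and the smaller one 50.6 CPM, both within that range. CDT1 had a ratio of 0.905 (0.854 to 0.958), MCM10 of 0.826 (0.796 to 0.858), and GMNN of 1.01 (0.990 to 1.04). At 5000 UMIs per cell GMNN had a ratio of 1.18 (1.11 to 1.26), above equality, and MCM7 one of 0.970 (0.911 to 1.03), which includes it. Counted as UMIs per cell, all 10 were higher in contractile cells, by 1.45 (MCM2 and MCM6) to 2.98 (CDC6), beside a median of 2.13 for all genes, and 8 of 10 reached 1.5, as did 78.6% of genes. Fewer copies per UMI and more RNA per cell cannot be told apart from these counts.

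**Figure D4:**
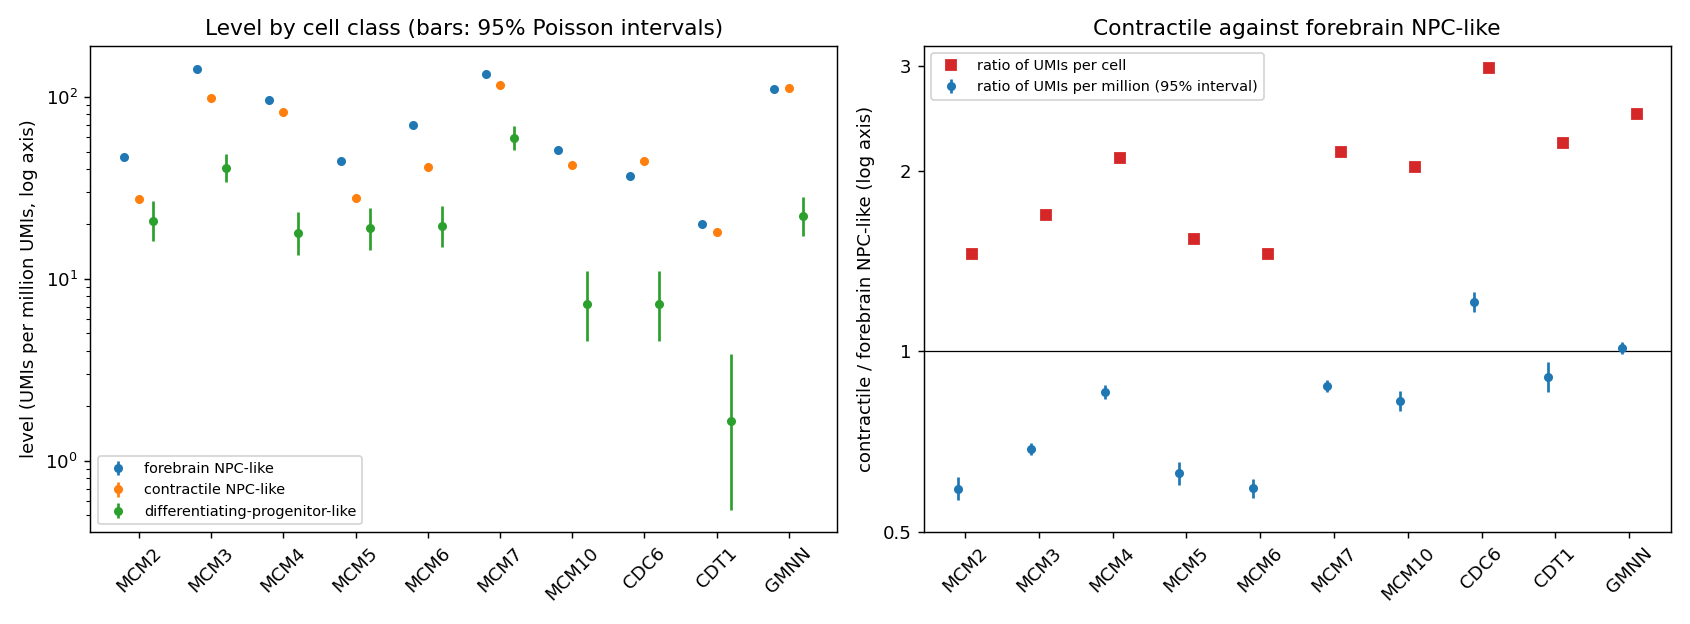
Level of each gene by cell class in CPM on a log axis with 95% Poisson intervals (left), and contractile over forebrain NPC-like ratio of CPM with 95% intervals and of UMIs per cell (right, log axis). By CPM the ratio runs from 0.590 for MCM2 to 1.21 for CDC6, and per cell all 10 ratios are above 1.

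The smaller contractile cluster had 169 cells with a median of 9595 UMIs, against 47474 in the larger one, and a GMNN level of 172 CPM (153 to 193). The leading genes of the larger cluster included COL8A1 and NPPB. Between the classes, G2/M landmark genes had a ratio of 0.921, which turned to 1.04 (1.01 to 1.06) at 5000 UMIs per cell, and histone genes one of 0.644, which was 0.823 (0.802 to 0.844) at that depth, and the part of the cycle mix in the ratios was not tested.

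Contractile NPC-like cells were ordered on their own, with scores centred and scaled within the class, and bins held 94 or 95 cells. A percent of the order is thus a share of the cells of each class and is not a common unit. The leads compared between classes below therefore cannot be read as differences in timing, and their SEs do not cover this. By the first harmonic, the MCM2 to MCM7 sum was ahead of the histone sum by less than in forebrain NPC-like cells (difference -2.35 percent of the order, SE 0.264, against -16.5). By highest bin, the sum peaked in bin 6, where the intervals of bins 6, 7 and 8 overlapped, and the histone sum in bin 9. In forebrain NPC-like cells the sum peaked in bin 6, where those of bins 5 and 6 overlapped, and the histone sum in bin 8, so highest bins do not tell the classes apart in this. The histone profile of contractile NPC-like cells had a second, lower high of 619 CPM in bin 18. The lead of the sum over G2/M genes, which were highest in bin 15, was somewhat smaller than in forebrain cells (difference -22.4, SE 0.257, against -25.4, SE 0.108), whereas the histone sum was further ahead of G2/M genes in contractile cells (difference -20.1, SE 0.165, against -8.89, SE 0.0570). By first harmonic against the histone sum, MCM6 (difference -6.09), MCM5 (-5.76) and CDC6 (-6.46) had the clearest leads. MCM4 (-3.38, SE 0.458) and MCM3 (-1.28, SE 0.516) had smaller ones. MCM10 (-0.23, SE 0.614), MCM2 (-0.87, SE 0.979) and CDT1 (0.74, SE 1.14) were within counting error of the histone genes. By this measure MCM7 (1.16, SE 0.579) and GMNN (4.85, SE 0.587) were behind the histone genes. By highest bin, MCM7 and GMNN both peaked in bin 8, before the histone sum in bin 9. The intervals of bins 6 to 10 overlapped for MCM7, and those of bins 5 to 10 and 13 for GMNN. CDT1 was again ahead of GMNN (difference -4.11, SE 1.27).

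Differentiating-progenitor-like cells had low levels of all 10 genes, and of other cell cycle genes too. Against forebrain NPC-like cells, the G2/M landmark genes had a ratio of 0.206 (0.191 to 0.223), the G1/S genes 0.338 (0.318 to 0.359) and the histone genes 0.415 (0.392 to 0.439). Their MCM2 to MCM7 sum was 178 CPM (163 to 193), 0.333 of the forebrain level (0.306 to 0.363). The smallest drops were those of MCM2, with a ratio of 0.450, MCM7, with 0.448, and MCM5, with 0.424. MCM4, CDC6 and GMNN stood at 0.186, 0.199 and 0.201, and MCM10 at 0.143. CDT1 had 5 UMIs in 202 cells, a ratio of 0.0832 (0.0270 to 0.194), and was found in 2.48% of them (0.808 to 5.68). A ratio of at most 1/2 was found for all 10 genes and for 9.34% of the 10380 genes tested. The intervals of MCM2 (0.345 to 0.576), MCM5 (0.321 to 0.550) and MCM7 (0.385 to 0.519) reached above 1/2, and at 5000 UMIs per cell the ratio of MCM2 was 0.538 (0.347 to 0.795). MCM7 alone made up 33.6% of the MCM2 to MCM7 UMIs there, against 24.98% in forebrain NPC-like cells. Low levels were not particular to this class. A forebrain NPC-like cluster of 119 cells had 226 CPM for the MCM2 to MCM7 sum and 167 CPM for the G2/M landmark genes. Its MCM2 (19.6 CPM), MCM7 (57.1 CPM) and CDC6 (6.35 CPM) were slightly below those of differentiating-progenitor-like cells, with overlapping intervals. The other genes of the 10 were higher in it than in that class.

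Other genes of the pathway are given by list, beside the 17.0% of all genes with a 2-fold range over the order, and differences between lists were not tested. Of 8 further genes that help loading, 2 had such a range: ORC1, the origin recognition subunit with the largest fold, 7.55 (5.46 to 10.7), and ORC6, with 5.69. The other 6 did not reach it, down to 1.34-fold for ORC4. All 3 other MCM genes passed, from 6.57-fold for MCM8 to 2.05-fold for MCM9 (1.78 to 2.37). All 13 tested firing genes passed, from CDC45, a helicase partner used in the S score, with 45.3-fold, to TOPBP1 with 2.12-fold (1.88 to 2.40). The intervals of MCM9 and TOPBP1 reached below 2-fold. Of 14 control genes 11 passed, from CCNA2 with 70.5-fold to CUL4A with 1.16-fold. Of these passing genes, 2 firing and 5 control genes had been used to build the order.

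Outside the 10 genes, the profiles most like the MCM2 to MCM7 sum, by Pearson's r of log2(CPM + 1) over the 20 bins, were those of CHAF1B (0.990, used in the S score), MYO19 (0.989), ARL6IP6 (0.986), NUP210 (0.986) and CTNNAL1 (0.985). Those most like GMNN, again outside the 10 genes, were CENPU (0.996, used in the S score), XRCC2 (0.992), CENPK (0.992), MCM8 (0.992) and BLM (0.992, used in the S score). The bins share cells, depth and the order itself, so these are descriptions. Within the group, MCM3 (0.999) was closest to the sum it is part of and GMNN (0.817) was farthest.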

How the data were processed

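The authors deposited raw counts, as UMIs per gene and barcode, made with Cell Ranger 7.0.1 on GRCh38. Seurat 4.4.0 is named in the submitters' processing notes too, and the annotation version is not given in the sources used here. Barcodes with 2000 to 10000 genes and a mitochondrial share below 0.1 were kept. The 10 genes were left out of clustering (scanpy 1.11.5, 2000 variable genes, 30 principal components, 20 neighbours, leidenalg 0.10.2 at resolution 0.5). A cluster was named from at least 3 markers at 20 CPM and 3-fold above other cells, or, for forebrain NPC-like cells, at 50 CPM. Names are rebuilt and are not the study's. Doublets were not removed (Scrublet called 222 barcodes). Intervals were exact Poisson, Clopper-Pearson or exact conditional, and position errors used the delta method on Poisson counts. Summaries were tested only on simulated cosine profiles, with cells spread evenly over the cycle. Limits of positions were checked there only in the true bins. Skewed profiles and profiles with more than 1 high were not simulated. Depth per cell was 3167 to 118188 UMIs. Named genes were the 10 members, the 5 histone genes with most UMIs, fixed G1/S and G2/M genes, the genes with largest and smallest fold in each pathway list, and the 5 most similar profiles. ORC6 and the leading cluster genes were named after their values were seen. The members and lists were chosen with earlier results of these data known.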

Additional observations from a re-analysis of the deposited data

How the results depend on the processing

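The MCM2 to MCM7 sum was 499 CPM after thinning, 501 as a mean of per-cell CPM, 485 over all barcodes and 487 without the 8% highest doublet scores. Its contractile to forebrain ratio was 0.777 after thinning, 0.691 in a clustering that allowed the 10 genes (0 of them were among its variable genes, so it did not test their entry), 0.780 and 0.718 at resolutions 0.2 and 1, and turned to 1.82 as UMIs per cell. As UMIs per cell the ratio also turned for MCM2 (1.45), MCM3 (1.69), MCM4 (2.11), MCM5 (1.54), MCM6 (1.45), MCM7 (2.15), MCM10 (2.03) and CDT1 (2.23). That of GMNN turned to 0.948 in that clustering and to 0.993 and 0.988 at the 2 resolutions, and was 1.18 after thinning. The share of cells with all 6 subunits was 0.0287% at 2500 UMIs and 20.7% with all UMIs. The MCM2 to MCM7 position minus that of histone genes was -2.35 in contractile cells, -14.5 in all kept cells, -16.2 with scores from all UMIs, -14.3 without the cells nearest the centre of the score plane, -12.2 as UMIs per cell and -15.9 without the highest doublet scores. In contractile cells it turned for MCM7 (1.16), CDT1 (0.74) and GMNN (4.85). Without the smaller contractile cluster, chosen after seeing the data as was removal of Scrublet calls, it was -2.07 for the sum and turned for MCM7 (1.44), CDT1 (1.13), GMNN (5.09) and MCM10 (0.000702). CDT1 minus GMNN was -4.11 in contractile cells, -3.96 there without that cluster, -1.88 with histone genes as the S axis (SE 2.46, within counting error) and -7.18 as UMIs per cell. A 2-fold range held for 8 of 10 genes with histone genes as the S axis and for 10 under the other alternatives. The share of all genes is given here for the main order only. The cause of these changes was not tested. No paired analysis was possible because there was 1 sample.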
